A study of Cavia porcellus with 34 samples.

Results

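The synaptic vesicle and exocytosis genes, as taken here, include those whose products tether, dock, prime and fuse the vesicles of a nerve terminal. They were taken by symbol, as the SV2 proteins, the synapsins and synaptophysin, the synaptotagmins, the SNAP, syntaxin and VAMP families, the syntaxin-binding proteins, the complexins, the RIM scaffolds and the UNC13 (Munc13) priming factors. The rule found 59 genes among 12114 in the F1 table, 61 among 12207 in the F2 table and 61 among 12068 in the F3 table. In all, 64 genes were in at least 1 table and 57 were in all 3. SYT5 was listed only in F1, SNAP29 only in F2, and VAMP5 and VAMP8 only in F3, while STX3 was listed in F1 and F2, and STXBP2 and STXBP5L in F2 and F3. Every listed member had a mean of at least 10 normalized counts and was tested. SNAP91 met the symbol rule, although its product, AP180, is a clathrin adaptor and not a SNARE. The rule also took SNAREs of membranes inside the cell, called internal SNAREs here, 9 genes in F1, 10 in F2 and 9 in F3. Counts over all members are therefore not counts of nerve terminal genes alone.

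The tissue was a micropunch of the paraventricular nucleus (PVN), the part of the hypothalamus that heads the stress hormone axis, from juvenile female guinea pigs at postnatal day 40, and its RNA was sequenced. Pregnant F0 females had received repeated courses of betamethasone, a synthetic glucocorticoid (sGC), or vehicle (Veh). F1 animals were exposed as fetuses, and F2 and F3 animals descended from them through F1 and F2 males mated with untreated females, the paternal line. The F1 and F2 groups had 5 animals each, and the F3 groups 6 each, where 2 of the sGC animals were sequenced in a second batch and all 6 Veh animals in the first. A punch took in the whole PVN and could hold neighbouring hypothalamus.

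Synaptic vesicles are tethered in reserve by synapsins, brought to the active zone by RIM scaffolds and made ready for fusion by Munc13 proteins. Fusion itself is driven by a SNARE complex of synaptobrevin (VAMP) on the vesicle with syntaxin and SNAP25 on the plasma membrane, with complexins among the regulators and synaptotagmins as the calcium sensors. In the PVN the same machinery serves fast transmission from incoming terminals, and related proteins serve the release of peptide hormones from dense core vesicles.

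The deposited values are normalized counts, in 1 table per generation, and the tables were normalized apart, so levels were compared only within a generation. Gene lengths of the build were not used here, so levels were not compared between genes. The values of an animal summed to between 15.57 and 21.94 M (mega) in F1, 15.65 and 19.44 M in F2, and 18.69 and 18.98 M in F3. Together the members took 12388 to 13756 ppm (parts per M of the sum of an animal) in F1 Veh and 12467 to 14119 in F1 sGC. In F2 their share was 10401 to 13597 ppm in Veh and 11131 to 12972 in sGC, and in F3 it was 11570 to 12163 in Veh and 11227 to 11972 in sGC. The summed share of the members therefore overlapped between Veh and sGC in every generation. AVP and OXT, the peptides that define magnocellular PVN neurons, were measured in every animal, as were all 9 PVN markers. In bulk tissue, fewer cells of a type and less RNA per cell cannot be told apart.

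Each generation was tested over all its genes with limma on log2(value + 1), and a gene was called at an adjusted p-value under 0.05. UNC13C rose in F1 sGC, and SV2C fell in F3 sGC. No other member passed in F1 or F3, and none passed in F2. In F1 the 1 call among 59 members was 1.69%, against 0.657% of all 11874 genes tested (78 genes). In F3 the 1 call among 61 members was 1.64%, against 0.0506% of all 11866 genes (6 genes). In F2 limma called 0 of 61 members and 0% of all 11965 genes (0 genes), while 4 members and 1395 genes had an unadjusted p-value under 0.05.

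Read at an unadjusted p-value under 0.05, members were about as frequent as other genes or less so. There were 7 of 59 members in F1 (11.9%, against 13.6% of all genes), 4 of 61 in F2 (6.56%, against 11.7%) and 9 of 61 in F3 (14.8%, against 13.1%). Members whose Veh and sGC values did not overlap numbered 1 in F1 (1.69%, against 2.04% of all genes), 0 in F2 (against 2.4%) and 2 in F3 (3.28%, against 1.21%). These 3 members were UNC13C in F1 and SV2C and SYT14 in F3.

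The direction of the members as a group was near that of all genes in F1 and F2. In F1, 40 members had a higher mean log2 value in sGC and 19 a lower one, so that 67.8% were higher, against 63.8% of all genes, with a median log2 fold change of 0.10 against 0.066. In F2, 13 were higher and 48 lower (21.3% higher, against 24.5% of all genes), with a median of -0.11 against -0.076. In F3, 22 were higher and 39 lower (36.1% higher, against 49% of all genes), with a median of -0.026 against -0.0016. By role, the F3 counts of higher and lower genes were 4 and 3 for vesicle proteins, 2 and 12 for synaptotagmins, 3 and 3 for surface SNAREs, 3 and 4 for vesicle SNAREs, 6 and 3 for internal SNAREs, 2 and 7 for SNARE regulators, and 1 and 7 for active zone genes. Differences between roles were not tested.

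**Figure D1:**
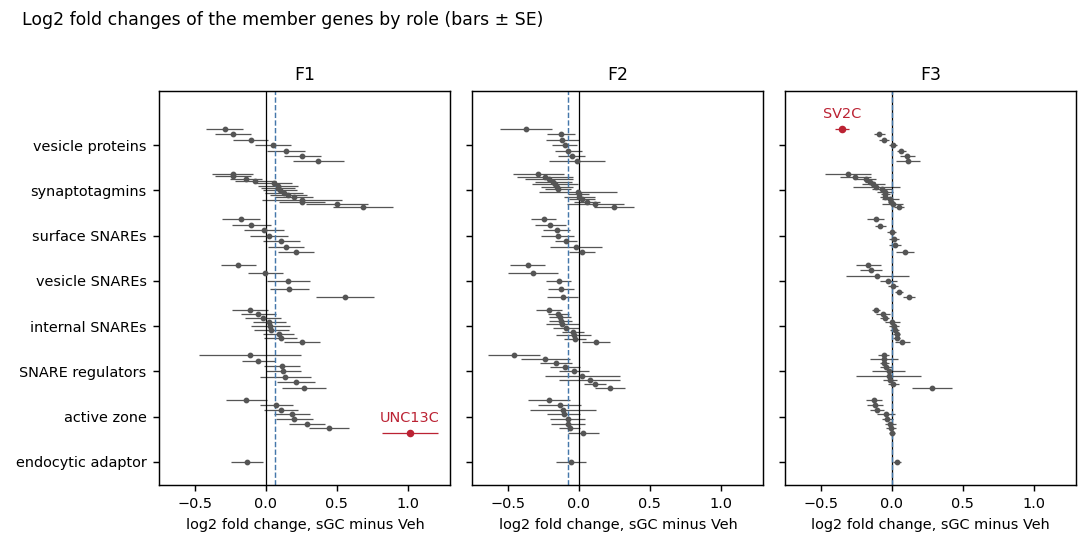
Log2 fold changes (sGC minus Veh, x axis) of every member by role (y axis) in F1, F2 and F3, each point 1 gene with a bar of ± 1 standard error, the black line at 0 and the dashed line at the median of all genes. The called genes are in red, UNC13C at 1.01 in F1 and SV2C at -0.35 in F3, and no other member passed.

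The active zone genes held the call of F1. UNC13C encodes Munc13-3, a vesicle priming factor best known from the cerebellum. Its normalized counts were 758, 831, 737, 517 and 938 in the Veh animals SGM3, SGM7, SGM11, SGM15 and SGM19. In the sGC animals SGM4, SGM8, SGM12, SGM16 and SGM20 they were 1941, 2491, 1126, 1049 and 1326. All 5 sGC animals lay above all 5 Veh animals, and SGM8 and SGM4 lay far above the other 3. The mean went from 756.2 ± 155 (SD, n = 5) to 1587 ± 615 (SD, n = 5), a log2 fold change of 1.01 ± 0.20 (SE), or 2.02-fold (adjusted p = 0.0186 by limma). Without Veh animal SGM15, the lowest, the log2 fold change was 0.88 and no longer passed (adjusted p = 0.0665 by limma).

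The F1 animals also differed in the level of PVN markers, the sum of AVP, OXT, CRH, TRH, SST, SIM1, OTP, POU3F2 and CALB2. In Veh animals it was 6478 to 12669 ppm. It was 1526 in sGC animal SGM4, 1960 in SGM8 and 3246 in SGM20, and 8107 in SGM12 and 10339 in SGM16. The 3 sGC animals with the lowest PVN marker levels were thus the 3 with the highest UNC13C values, and among the Veh animals SGM19 had the lowest marker level and the highest UNC13C value. The ranges of other cell markers overlapped between the groups. Oligodendrocyte markers summed to 1803 to 3192 ppm in Veh and 2022 to 5403 in sGC, and endothelial markers to 511 to 572 and 505 to 917. Yet SGM4 and SGM8 lay above every Veh animal in both, at 3808 and 5403 and at 917 and 822. They did so for precursor and microglia markers too. SGM16 and SGM20 also lay above every Veh animal for endothelial markers, at 611 and 605. For microglia markers these animals stood at 238 and 225, against a highest Veh value of 216. Of the endothelial markers, 6 of 8 were higher in sGC at an unadjusted p-value under 0.05 by limma. No oligodendrocyte or endothelial marker was called. The 2 sGC animals in the Veh range of PVN markers, SGM12 and SGM16, had the lowest UNC13C values of their group, and both lay above every Veh animal on the deposited scale. Fitted with all Veh animals and only these 2 sGC animals, UNC13C had a log2 fold change of 0.55 and did not pass (adjusted p = 0.136 by limma). With size factors it was 0.45 (adjusted p = 0.168 by limma). This fit was added after seeing the data. With 2 sGC animals, a call kept or lost does not tell whether a gene depends on the marker levels. The part of the marker levels in the UNC13C result was not tested.

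**Figure D2:**
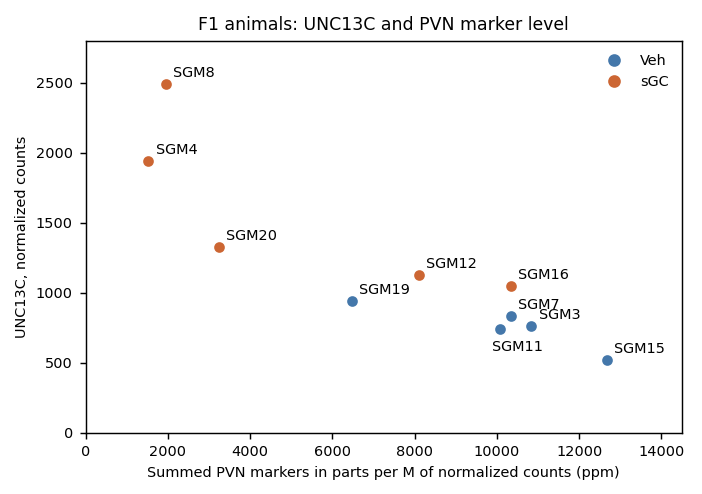
UNC13C in normalized counts (y axis) against the summed PVN markers in ppm (x axis) in the 10 F1 animals, each point 1 animal named by its code. The sGC animals SGM4, SGM8 and SGM20 lie left of every Veh animal, at 1941, 2491 and 1326, while SGM12 and SGM16 lie among the Veh animals on the x axis, at 1126 and 1049.

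The paralogs of UNC13C had smaller differences in F1. UNC13B, which encodes the priming factor Munc13-2, had 884, 1071, 825, 718 and 740 normalized counts in Veh and 1408, 1275, 927, 1174 and 989 in sGC, in the same order of animals. The groups overlapped, since sGC animals SGM12 and SGM20 lay below Veh animal SGM7. Its log2 fold change was 0.44 with a standard error of 0.14 (adjusted p = 0.132 by limma). UNC13B passed in 1 of 10 fits with 1 animal left out, at 0.53 without Veh animal SGM7 (adjusted p = 0.0365 by limma). In that fit 474 of all genes passed, against 78 with every animal. UNC13A, which encodes Munc13-1, the main priming factor of forebrain synapses, had 2409 to 3249 in Veh and 2632 to 4009 in sGC, with a log2 fold change of 0.18 (adjusted p = 0.582 by limma). RIMS1, a scaffold that ties Munc13 and calcium channels to the active zone, had a log2 fold change of 0.11 (adjusted p = 0.777 by limma). In all, 7 of 8 active zone genes had a log2 fold change above 0 in F1, with a median of 0.19.

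UNC13C did not differ between groups beyond the spread in the later generations. In F2 it was 1207, 662, 1160, 951 and 1659 in Veh and 1310, 965, 1316, 654 and 913 in sGC, and the log2 fold change was -0.11 with a 95% confidence interval of -0.61 to 0.38 (adjusted p = 0.862 by limma). In F3 its lowest, median and highest values were 1229, 1445 and 1606 in Veh and 1304, 1358.5 and 1540 in sGC, and the log2 fold change was -0.04 with an interval of -0.18 to 0.09 (adjusted p = 0.832 by limma). The F3 interval leaves out a rise of the F1 size, while the F1 and F3 fold changes were not tested against each other. UNC13B stood at -0.08 in F2 and -0.11 in F3, and UNC13A at -0.13 and -0.03 on the same log2 scale.

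**Figure D3:**
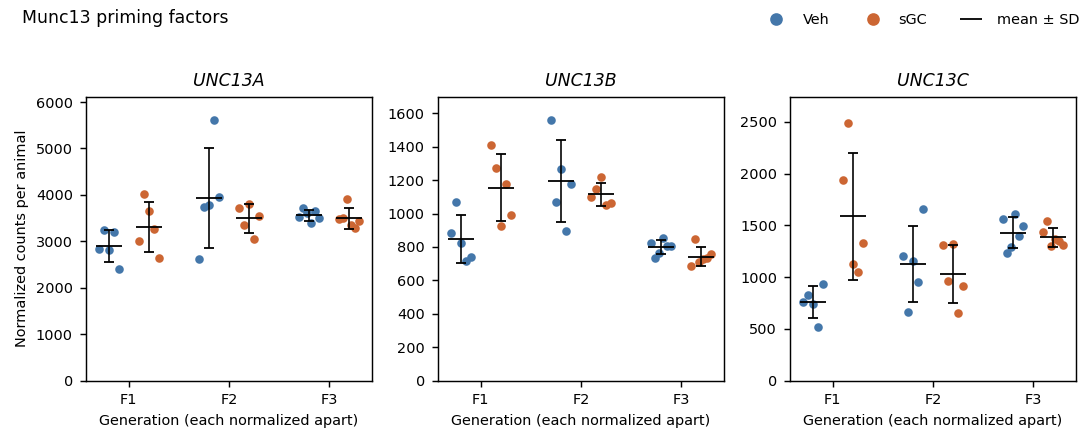
Normalized counts of UNC13A, UNC13B and UNC13C (y axes) in each animal of F1, F2 and F3 (x axis), with the mean and SD of each group as bars. UNC13C values of F1 do not overlap, with Veh at 517 to 938 and sGC at 1049 to 2491, whereas every other pair of groups overlaps.

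Scaling changed the number of F1 calls more than any other choice. On the deposited scale the sums of the F1 animals spread widely, and this spread entered every gene. Divided by median-of-ratios size factors, which set the typical gene level across animals, 8 of 59 members passed (13.6%, against 17.3% of all 11870 genes, 2058 genes). With these factors 3 members rose, against 8.48% of all genes that rose, and 5 members fell, against 8.86% of all genes that fell. UNC13C, UNC13B and the synapsin SYN3 rose, and VAMP2, SYP, SYT4, STX12 and STX2 fell. The share of members called was thus below that of all genes.

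VAMP2, the synaptobrevin of most central synapses, had the smallest adjusted p-value among members on that scale. Divided by the size factors its values were 16280, 15335, 15828, 15991 and 15733 in Veh and 13404, 13442, 13276, 12861 and 13211 in sGC, in the order of animals given above. The groups lay clear of each other, with every sGC animal below every Veh animal and little spread in either group. The log2 fold change was -0.26 (adjusted p = 0.00132 by limma). As deposited, the values ran from 13355 to 18437 in Veh and from 11991 to 14403 in sGC, and the log2 fold change of -0.20 ± 0.12 (SE) did not pass (adjusted p = 0.527 by limma). In the fit with only the 2 sGC animals within the Veh range of PVN markers, size factors gave -0.28 (adjusted p = 0.0123 by limma).

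Other vesicle genes that fell in F1 with the size factors were SYP, for synaptophysin, an abundant protein of the vesicle membrane, and SYT4, a synaptotagmin found on dense core vesicles of neuroendocrine cells. SYP had 16369 to 18106 in Veh and 14399 to 16317 in sGC on that scale, a log2 fold change of -0.17 (adjusted p = 0.0314 by limma). SYT4 had 8696 to 10877 in Veh and 6815 to 8688 in sGC, a log2 fold change of -0.30 (adjusted p = 0.0241 by limma). Neither gene overlapped between groups, and both were separated by a narrow margin. The endosomal syntaxin STX12, with -0.18 (adjusted p = 0.0210 by limma), also had no overlap, again by a narrow margin. The plasma membrane syntaxin STX2, with -0.24 (adjusted p = 0.0487 by limma), overlapped. The share of all genes without overlap was not counted with size factors, so the lack of overlap has no background here. With only the 2 sGC animals within the Veh range of PVN markers, SYP stood at -0.15 (adjusted p = 0.112 by limma). SYT4 stood there at -0.19 (adjusted p = 0.177 by limma), STX12 at -0.11 (adjusted p = 0.215 by limma) and STX2 at -0.13 (adjusted p = 0.270 by limma). Whether these genes depend on the marker levels was not tested.

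Of the genes that rose with the size factors, UNC13B had a log2 fold change of 0.38 (adjusted p = 0.0182 by limma) and 832 to 891 in Veh against 887 to 1348 in sGC. SYN3, a synapsin, had one of 0.19 (adjusted p = 0.0417 by limma), with 1344 to 1483 in Veh and 1427 to 1760 in sGC. UNC13C passed again at 0.95 (adjusted p = 0.0207 by limma), although its values then overlapped, since Veh animal SGM19 stood at 1105 and sGC animals SGM12 and SGM16 at 1077 and 999. With only the 2 sGC animals within the Veh range of PVN markers, SYN3 stood at 0.24 (adjusted p = 0.0308 by limma) and UNC13B at 0.21 (adjusted p = 0.133 by limma). A difference between these genes was not tested.

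**Figure D4:**
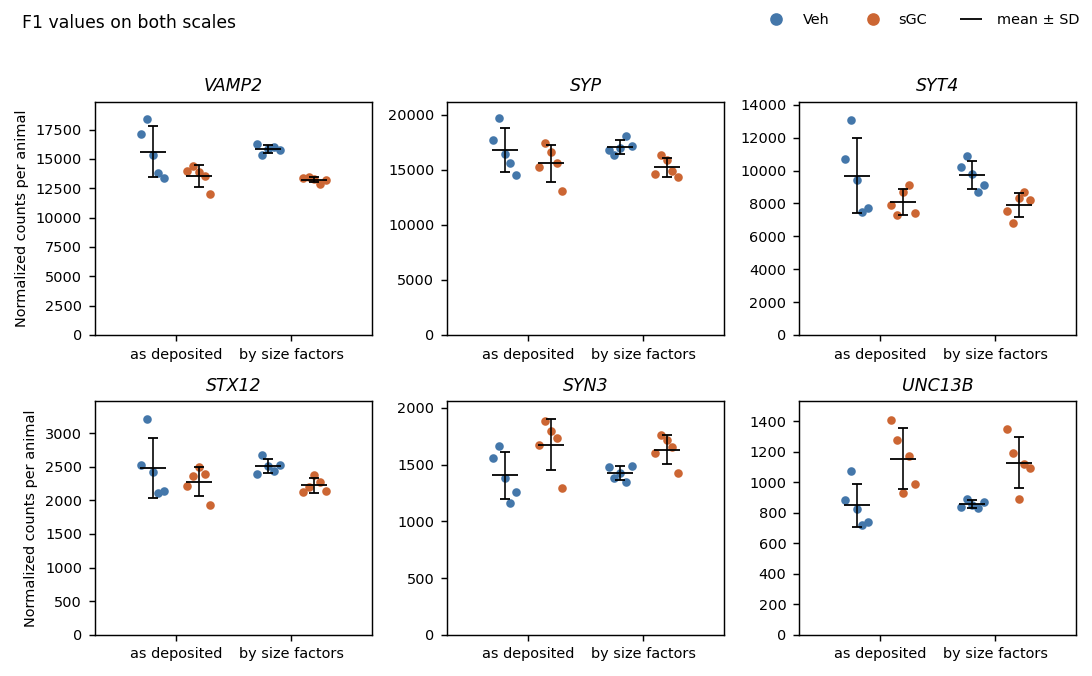
F1 values of VAMP2, SYP, SYT4, STX12, SYN3 and UNC13B in normalized counts (y axes) as deposited and divided by size factors (x axis), each point 1 animal, with the mean and SD of each group. Division by the size factors narrows VAMP2 to 15335 to 16280 in Veh and 12861 to 13442 in sGC.

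The remaining core release genes gave no call in F1 on either scale. SNAP25, the plasma membrane SNARE, had 17248, 18716, 16470, 13889 and 17188 normalized counts in Veh and 15889, 23098, 15887, 15031 and 15541 in sGC. Apart from sGC animal SGM8, the sGC values lay between 15031 and 15889, a narrow part of the Veh range. The log2 fold change was 0.02 (adjusted p = 0.969 by limma), and -0.09 without SGM8. SYT1, the fast calcium sensor, stood at 0.20 (adjusted p = 0.580 by limma), and STX1A, a neuronal syntaxin, at -0.10 (adjusted p = 0.820 by limma). VAMP1, a synaptobrevin best known from motor terminals, had 2517, 1960, 2187, 1689 and 2816 in Veh and 3283, 6164, 2597, 1983 and 3418 in sGC, a log2 fold change of 0.56 (adjusted p = 0.212 by limma). It passed in 1 of 10 fits with 1 animal left out, at 0.74 without sGC animal SGM16 (adjusted p = 0.0458 by limma). In the animals within the Veh range of PVN markers VAMP1 stood at 0.046, and at -0.054 with size factors. The complexins, which clamp and activate the SNARE complex, stood at 0.14 for CPLX1 (adjusted p = 0.811 by limma) and 0.27 for CPLX2 (adjusted p = 0.479 by limma). The calcium sensor SYT7, which serves asynchronous release, stood at -0.23 (adjusted p = 0.432 by limma), and SYT11, which lacks calcium binding, at 0.06 (adjusted p = 0.894 by limma). Direction depended on the scaling for SNAP25, SYT11 and SV2A, whose log2 fold changes were above 0 as deposited and below 0 with size factors.

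In F2 no member passed, and the members were lower in sGC about as often as all genes. By role, the log2 fold change was below 0 in 7 of 7 vesicle protein, 8 of 14 synaptotagmin, 6 of 7 surface SNARE, 5 of 5 vesicle SNARE, 9 of 10 internal SNARE, 5 of 9 SNARE regulator and 7 of 8 active zone genes. With size factors the F2 members split into 23 higher and 38 lower, the vesicle proteins into 2 and 5 and the synaptotagmins into 7 and 7, and 0 were called. CPLX1 had the largest difference among the core genes, with 1420, 1168, 1729, 1714 and 2117 in Veh and 1811, 1193, 916, 1048 and 1021 in sGC. The groups overlapped, since sGC animal SGM21, the first of these sGC values, lay above 4 of 5 Veh animals, and the log2 fold change was -0.46 with a standard error of 0.18 (adjusted p = 0.370 by limma). SV2B stood at -0.37 (adjusted p = 0.462 by limma), VAMP1 at -0.32 (adjusted p = 0.503 by limma), SYT1 at -0.29 (adjusted p = 0.553 by limma) and SNAP25 at -0.20 (adjusted p = 0.497 by limma). In the same animals oligodendrocyte markers summed to 7359 to 13981 ppm in Veh and 4507 to 6370 in sGC, without overlap. All 10 of them were lower in sGC at an unadjusted p-value under 0.05 by limma, with a median log2 fold change of -0.79. Of all F2 genes, 11.7% had such a p-value in either direction. None of the 10 was called, nor was any other F2 gene. All 10 neuron markers tested were lower in F2 sGC as well, none called, and their sums were 6148 to 7559 ppm in Veh and 6399 to 7179 in sGC. PVN markers summed to 3478.5 to 6705 ppm in F2 Veh and 4892 to 11975 in F2 sGC. The sGC animals SGM30, SGM25 and SGM24 lay above every Veh animal, at 6974, 8922 and 11975. Of the 9 PVN markers, 5 were higher in sGC at an unadjusted p-value under 0.05 by limma and 0 lower. The part of these cell markers in the F2 values was not tested.

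In F3 the call lay among the vesicle membrane proteins. SV2C encodes an SV2 glycoprotein that is enriched in subcortical brain regions and serves as an entry receptor of botulinum neurotoxin A. Its lowest, median and highest values were 1665, 1753.5 and 1872 normalized counts in Veh and 1224, 1387.5 and 1512 in sGC. All 6 sGC animals lay below all 6 Veh animals, with a gap wider than the SD of either group. The mean went from 1750 ± 78.7 (SD, n = 6) to 1376 ± 114 (SD, n = 6), a log2 fold change of -0.35 ± 0.05 (SE), or 0.785-fold (adjusted p = 0.0305 by limma). In the first sequencing batch alone, with 6 Veh and 4 sGC animals, the log2 fold change was -0.38 (adjusted p = 0.0466 by limma), and with batch as a covariate it was also -0.38 (adjusted p = 0.0294 by limma). The second batch held 2 sGC animals and 2 re-sequenced Veh libraries. Those Veh libraries were not analysed here, so that batch gave no comparison of its own.

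The SV2C call rested close to the threshold. When 1 animal at a time was left out, the log2 fold change stayed between -0.38 and -0.32, and 5 of 12 fits passed. The call was lost without Veh animals SGM13, SGM17, SGM5, SGM9 or SGM1 and without sGC animals SGM6 or SGM_21, where the adjusted p-value from limma was 0.0538 to 0.0856. The F3 values had 2 directions with almost no spread within groups, read here as taken out by the authors' correction. With these as covariates the same difference did not pass (adjusted p = 0.154 by limma). PVN markers summed to 1209 to 3296 ppm in F3 Veh and 1596 to 2493 in F3 sGC, and oligodendrocyte markers to 2867 to 4048 and 2980 to 4186, so that both overlapped widely. Neuron markers summed to 6623 to 6953 in Veh and 6339 to 6853 in sGC. The sGC animals SGM18, SGM6, SGM_21 and SGM_22 lay below every Veh animal, at 6592, 6601, 6339 and 6522. Of 10 neuron markers, 3 were lower in sGC at an unadjusted p-value under 0.05 by limma and 0 higher. The part of the neuron markers in the SV2C result was not tested.

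The other genes of the SV2 family were not called in F3. SV2A, the isoform of nearly all synapses and the target of levetiracetam, had 11879, 12733 and 13502 as lowest, median and highest values in Veh and 11898, 12068 and 12861 in sGC, a log2 fold change of -0.06 (adjusted p = 0.495 by limma). SV2B stood at 0.11 (adjusted p = 0.383 by limma). In F1 the log2 fold change of SV2C was 0.37 (adjusted p = 0.374 by limma), with 1407, 1870, 1143, 913 and 862 in Veh and 1229, 2223, 1447, 1467 and 1473 in sGC. In F2 it stood at -0.02 (adjusted p = 0.981 by limma). The F1 and F2 values overlapped between groups, and the 3 fold changes were not tested against each other.

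**Figure D5:**
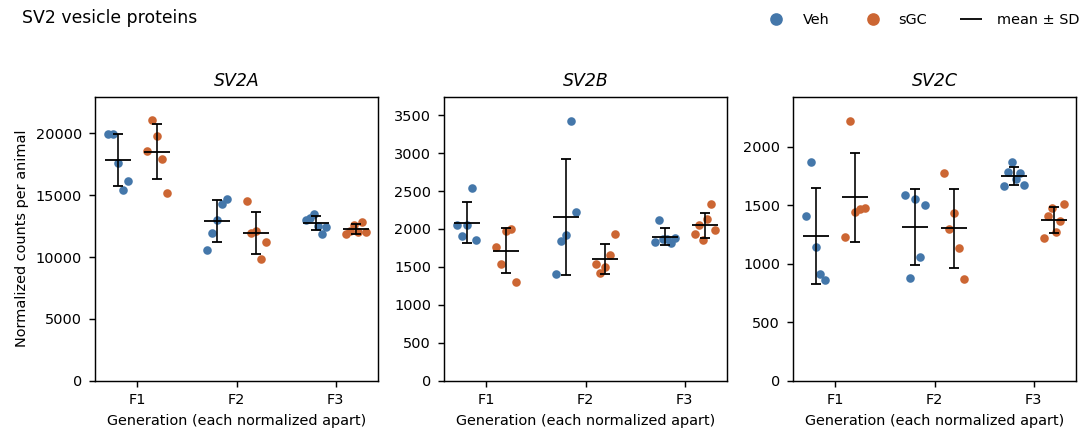
Normalized counts of SV2A, SV2B and SV2C (y axes) in each animal of F1, F2 and F3 (x axis), with the mean and SD of each group as bars. SV2C separates in F3, with Veh at 1665 to 1872 and sGC at 1224 to 1512, and overlaps in F1 and F2.

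SYT14 was the other F3 member without overlap. It encodes a synaptotagmin that does not bind calcium. Its lowest, median and highest values were 827, 839 and 903 in Veh and 730, 765.5 and 808 in sGC, a log2 fold change of -0.15 ± 0.03 (SE) (adjusted p = 0.0964 by limma). It stood at 0.09 in F1 (adjusted p = 0.826 by limma) and 0.02 in F2 (adjusted p = 0.926 by limma).

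Of the core release genes, VAMP2, SYT1 and RIMS1 were close to equal between the F3 groups. VAMP2 had a log2 fold change of 0.0073 with a 95% confidence interval of -0.07 to 0.09, and SYT1 one of -0.011 with an interval of -0.14 to 0.12. RIMS1 stood at 0.00069 with an interval of -0.05 to 0.05. For these genes the intervals lay within a small fraction of a doubling, though they take no account of the normalization that came before. The intervals of CPLX1, from -0.28 to 0.23, and CPLX2, from -0.27 to 0.15, were wider. SNAP25 stood at -0.08 with an interval of -0.16 to -0.00073 (adjusted p = 0.377 by limma). SYN1, the synapsin of the reserve pool, stood at 0.07 (adjusted p = 0.372 by limma), VAMP1 at -0.17 (adjusted p = 0.443 by limma) and SYN2 at 0.11 (adjusted p = 0.600 by limma). Among the 20 core release genes the only F3 call was SV2C.

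The members differed widely in how much they varied between animals of 1 group. The median within-group SD of members, on the log2 scale of the deposited values, was 0.19 in F1, 0.18 in F2 and 0.077 in F3, against 0.21, 0.16 and 0.083 for all genes. With size factors, CPLX1, CPLX3, SYT16 and SYT2 were among the 10 most variable members in each generation. CPLX3 and SYT16 had few counts, with group means of 13.0 to 25.0 and 21.0 to 33.4 normalized counts. At the other end, VAMP2 in F1 had an SD of 0.029 with size factors, and 0.286% of the genes tested had a lower one, and SYT11 in F3 also had one of 0.029. These members were chosen after their values were seen.

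The partners of the release machinery were read from 3 further lists. Of 25 active zone and priming partners tested in F1, 16 were higher and 9 lower, where 63.8% of all genes were higher, and 0 passed. RIMBP2, which links RIM to calcium channels, had a log2 fold change of 0.62 (adjusted p = 0.0519 by limma), and with size factors RIMBP2, ERC1 and SYTL2 rose, 3 of 25 where 8.48% of all genes rose. Of 25 vesicle endocytosis genes, 17 were higher and 8 lower, and DNM3, a dynamin that pinches vesicles off the membrane, rose by 0.57 ± 0.13 (SE) (adjusted p = 0.0420 by limma). With size factors SH3GL1, SH3GL2, CLTA, CLTB and AP2S1, for endophilins, clathrin light chains and an adaptor subunit, fell in F1, 5 of 25 where 8.86% of all genes fell. Of 21 other vesicle membrane genes, such as transmitter transporters and proton pump subunits, 7 were higher and 14 lower, and 0 passed as deposited. With size factors SLC18A2, the vesicular monoamine transporter, rose, and SYNGR3, ATP6V0C and ATP6V1E1 fell, 1 and 3 of 21 beside the same shares of all genes. In F2 the counts of higher and lower genes in the 3 lists were 8 and 16, 4 and 21, and 3 and 18, and in F3 they were 7 and 16, 18 and 7, and 10 and 10, where 24.5% of all genes were higher in F2 and 49% in F3. None of these genes was called in F2 or F3, and 0 passed there with size factors.

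The cell type markers gave no call in any generation on the deposited scale. In F1, 0 of 9 PVN markers had a higher mean in sGC, with a median log2 fold change of -0.70. The counts of higher markers were 6 of 11 neuron, 7 of 8 astrocyte, 9 of 9 oligodendrocyte, 4 of 4 oligodendrocyte precursor, 4 of 6 microglia and 8 of 8 endothelial markers. With size factors MAP2 and CX3CR1 rose in F1 among these markers, and STMN2, UCHL1 and TRH fell. In F2, 8 of 9 PVN and 4 of 8 astrocyte markers were higher, and the neuron, oligodendrocyte, precursor, microglia and endothelial markers were all lower. In F3, 4 of 9 PVN, 3 of 10 neuron, 4 of 8 astrocyte, 7 of 9 oligodendrocyte, 5 of 5 precursor, 6 of 6 microglia and 3 of 8 endothelial markers were higher, and the median log2 fold change was -0.01 for PVN, 0.09 for oligodendrocyte and 0.12 for microglia markers.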

How the data were processed

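RNA-seq of PVN micropunches from 32 female guinea pigs was used. Per the study's methods, the authors aligned reads to cavPor3, counted them on genes with GenomicAlignments, merged both F3 batches using ComBat, and then corrected the counts with RUVSeq, using model residuals. The values that the authors deposited are a score in this sense, corrected and rounded to whole numbers, so no count model was run and no interval for counting error is given. The deposited tables also hold the authors' dispersion, log2 fold change, likelihood ratio and p-value columns, which were not used. In F3, 2 re-sequenced Veh libraries were not analysed here.

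Each table was fitted on its own in R 4.3.3 by limma 3.58.1 (two-sided moderated test with a mean-variance trend) on log2(value + 1), which is a pseudocount of 1. Genes under a mean of 10 were left out, p-values were adjusted by Benjamini-Hochberg over all genes tested, and the threshold was 0.05. Fold changes on this scale understate those of low genes. The procedure was tested on simulated data. Alternatives were size factors, sample totals, quantile normalization, a pseudocount of 5, minimum means of 50 and 0, the removed directions as covariates, sequencing batch, and each animal left out. The removed directions (1 in F1, 1 in F2 and 2 in F3) were seen as singular values near 0. They were read as taken out by the authors' correction, whose number of factors the study's methods do not state.

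Named genes were members called in any generation, as deposited or with size factors, the 3 largest rises and falls per generation without overlap and a mean of at least 50, and 20 core release genes, some of which are not reported here. The members, the pathway lists, the marker lists and this rule were chosen with earlier results of these data known. Symbols were taken as the tables give them, and 63 of 64 matched the RefSeq gene names of mCavPor4.1. Overlapping or antisense genes were not examined. Each animal was a separate sample. The p-values measure the spread between animals that was left after the authors' correction. The main fits made no allowance for the removed directions.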

Additional observations from a re-analysis of the deposited data

Results flagged for a closer look

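Within a group, 1 animal stood apart from the others by Dixon's criterion in 5 of 156 groups of named genes, fewer than the 7.8 that chance alone would give. In log2 units, SYT14 was 9.88 in F1 sGC animal SGM20 against 10.08 to 10.11 in the others. SNAP25 was 14.50 in F1 sGC animal SGM8 against 13.88 to 13.96. CPLX2, for a complexin, was 12.15 in F1 Veh animal SGM15 against 12.57 to 12.74. UNC13A was 11.93 in F3 sGC animal SGM2 against 11.69 to 11.77, and SV2B was 11.05 in F3 Veh animal SGM14 against 10.82 to 10.88.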

How the results depend on the processing

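The number of calls in F1 depended on the scaling. From 78 genes and 1 member as deposited, it went to 2058 and 8 with size factors, 1943 and 7 with sample totals, 2084 and 9 with quantile normalization, and 1345 and 5 with size factors and the removed directions, the last added after seeing the data. In the animals within the Veh range of PVN markers, also added after seeing the data, it was 163 and 0, and 1032 and 4 with size factors. Leaving out 1 animal gave 15 genes (without Veh SGM15) to 474 (without Veh SGM7) and 0 members (without Veh SGM15) to 3 (without Veh SGM7 or sGC SGM16). In F2, quantile normalization called 42 genes, a minimum mean of 50 called 17, leaving out 1 animal gave 0 to 114 (the most without Veh SGM28), and members called stayed at 0. In F3, 6 genes and 1 member became 1 and 0 with the removed directions as covariates, with or without size factors, 3 genes with batch as a covariate, 2 in the first batch, and 1 (without Veh SGM13, SGM5, SGM9 or SGM1, or sGC SGM6 or SGM_21) to 15 (without sGC SGM18) with 1 animal left out, where 0 to 1 members passed. The cause of these changes was not tested. The median of members relative to all genes was 0.034 in F1 (-0.0023 to 0.043 with 1 animal left out), -0.031 in F2 (-0.069 to 0.0012) and -0.025 in F3 (-0.036 to -0.012). UNC13C passed in 8 of 10 other settings, and the other 2 kept only the 2 sGC animals with its lowest values. Of the named genes further than 1 standard error from 0, VAMP1 in F1 turned its direction, to -0.054 with size factors in the animals within the Veh range of PVN markers, and no other did. The sign of a named gene changed in 13 of 260 values in F1, 16 of 208 in F2 and 9 of 260 in F3 under the other settings, and in 3 of 260, 16 of 260 and 33 of 312 when 1 animal was left out. No paired analysis was possible because the animals carry unique codes. The deposited values are not raw reads, and no limit from depth is given.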
